A study of Mus musculus with 27 samples.

Results

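The Iroquois homeobox genes Irx1, Irx2, Irx3 and Irx5 were followed by RNA sequencing through 21 libraries of mouse stomach organoids, which are epithelial cultures grown in a gel matrix. They were taken by gene symbol and are 4 of the 6 Iroquois genes in a table of 56691 genes. The choice was made because Irx2 and Irx5 had 0 counts in every library of wild-type organoids at passage 15, so their values in that group are a description and carry no test. At the edge of that choice stood Irx3, with 1, 6 and 0 counts in the same 3 libraries.

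The libraries form 7 groups of 3. Organoids labelled Gpx4 KO were grown from Mist1+ cells and sampled at passages 5, 10 and 15. Mist1+ organoids with the genotype label WT, called wild type here, were sampled at the same 3 passages, and Mist1- organoids at passage 5. Gpx4 encodes a selenium-containing peroxidase that protects membrane lipids and holds back ferroptosis. Mist1, encoded by Bhlha15, drives the secretory architecture of cells such as gastric chief cells. Per the labels, the cells of every group came from adult Mist1CreERT2;RFPLSL mice, so a tamoxifen-dependent Cre under Mist1 control and a red fluorescent reporter are shared by knockout, wild-type and Mist1- cultures. The labels do not say how Gpx4 was deleted, how many animals or clones were used, or whether libraries of the same group came from different cultures. Their p-values therefore measure the spread between libraries only. Another 6 of the 27 samples, sorted cells from mice on a normal or a high-fat diet, were not analysed here.

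Iroquois proteins are transcription factors of the TALE homeodomain class that bind DNA and mostly act as patterning genes, setting up regional differences along developing organs. In mouse they lie in a pair of clusters, Irx1, Irx2 and Irx4 on chromosome 13 and Irx3, Irx5 and Irx6 on chromosome 8, and each gene has its closest relative at the matching place of the other cluster, so that Irx2 pairs with Irx5 and Irx1 with Irx3. Irx3 and Irx5 are known from heart, limb and neural development, Irx5 for the gradient of potassium current across the ventricular wall of the heart. Irx3 is also known as a distant target of regulatory elements inside the introns of its neighbour Fto.

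On GRCm38 (GENCODE M21), Irx2 (ENSMUSG00000001504) lies on chromosome 13 from 72628820 to 72634198 on the plus strand, with up to 5 exons in a transcript. Irx1 (ENSMUSG00000060969) lies in the same cluster, from 71957921 to 71963723 on the minus strand. Irx3 (ENSMUSG00000031734) lies on chromosome 8 from 91798525 to 91802067 on the minus strand, and Irx5 (ENSMUSG00000031737) from 92357625 to 92376286 on the plus strand. The RefSeq promoter table for GRCm38.p6, with 250 bases before and 50 after each start, held 2 of the 4 members, Irx2 and Irx3. Both windows are shown, as Irx1 and Irx5 had no entry there. Irx2 and Irx3 sit in different clusters. Both, like Irx5, had more counts in the knockout than in the wild type at passage 5. Capitals mark the GC box GGGCGG, the core letters of Sp1 sites, searched on both strands.
Irx2, chr13:72628570-72628869, plus strand: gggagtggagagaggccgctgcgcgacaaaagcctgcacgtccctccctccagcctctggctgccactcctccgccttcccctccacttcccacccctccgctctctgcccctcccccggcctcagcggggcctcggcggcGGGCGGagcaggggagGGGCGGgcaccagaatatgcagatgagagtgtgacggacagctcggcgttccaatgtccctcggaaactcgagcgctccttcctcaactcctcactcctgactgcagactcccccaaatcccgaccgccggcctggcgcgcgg
Irx3, chr8:91801605-91801904, minus strand: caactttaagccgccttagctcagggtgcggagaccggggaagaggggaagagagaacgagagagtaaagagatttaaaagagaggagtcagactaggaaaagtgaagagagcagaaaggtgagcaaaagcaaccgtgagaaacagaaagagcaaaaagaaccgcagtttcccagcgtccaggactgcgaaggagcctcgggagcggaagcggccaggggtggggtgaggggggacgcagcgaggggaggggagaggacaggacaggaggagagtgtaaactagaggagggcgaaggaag
The Irx2 window held 25 CpG and 69.0% GC with 2 GC boxes and 1 CCAAT box. The Irx3 window held 14 CpG and 56.0% GC and none of these letters. That Irx3 window lies wholly inside the GENCODE span of Irx3, after its minus-strand start at 91802067. Its values thus describe sequence around the RefSeq start and not before the GENCODE start. The Irx2 window holds the GENCODE start of Irx2, at 72628820. The median over 32851 promoters was 7 CpG, and 18.4% of them had at least as many as Irx2 and 36.3% at least as many as Irx3. GGGCGG was found in 35.7% of those promoters and CCAAT in 37.4% (both strands each), and TATAAA, in neither member, in 13.6%. No match overlapped another, and a match describes the window without showing that a protein binds there.

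Depth was 13805585 to 19608956 counts in genes per library (21 libraries), and 14984 genes passed the filter on low counts. In 6 groups the replicates differed by more than counting noise, with a biological coefficient of variation of 1.89% to 3.07%. For their 18 pairs the ratio of chi-square to its degrees of freedom was between 1.57 and 2.64. Wild-type passage 15 stood apart, with 21.0% and 17.5 to 82.7, and was left out of the model that gave the tests. Epithelial markers were high in all groups, with mean levels of 415 to 678 counts per 1e6 (CPM) for Epcam, an epithelial adhesion protein, and 1280 to 1630 CPM for Cldn18, a stomach tight junction protein. The 10 markers of fibroblasts and stroma summed to only 0.295 to 4.29 CPM in any library. Gpx4 had 83.1 to 101 CPM in the knockout libraries, against 104 to 196 CPM in the wild-type libraries, and since the deleted part is not given, this level does not check the knockout. Bhlha15 averaged 5.5 CPM in Mist1+ and 10.4 CPM in Mist1- organoids at passage 5.

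Of the 4 members, 3 passed the filter and Irx1 did not. Irx1, known in mouse from lung and digit development and in human as a gene silenced in gastric cancers, had 0 counts in all 21 libraries. For a group of 3 libraries a count of 0 allows up to 0.0558 to 0.0689 CPM (3 counts over the group, counting error only). Irx6 had 0 counts as well, and Irx4 had 2 counts over all libraries. Detectable Iroquois RNA in these organoids was thus that of Irx2, Irx3 and Irx5. Per exonic length, Irx5 was the highest of the 3 in all 18 libraries outside wild-type passage 15, with group means of 2.08 to 5.83 FPKM (fragments per kilobase and 1e6 counts, as deposited). Irx2 had 0.200 to 2.37 FPKM and Irx3 0.157 to 0.903 FPKM in those groups.

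**Figure D1:**
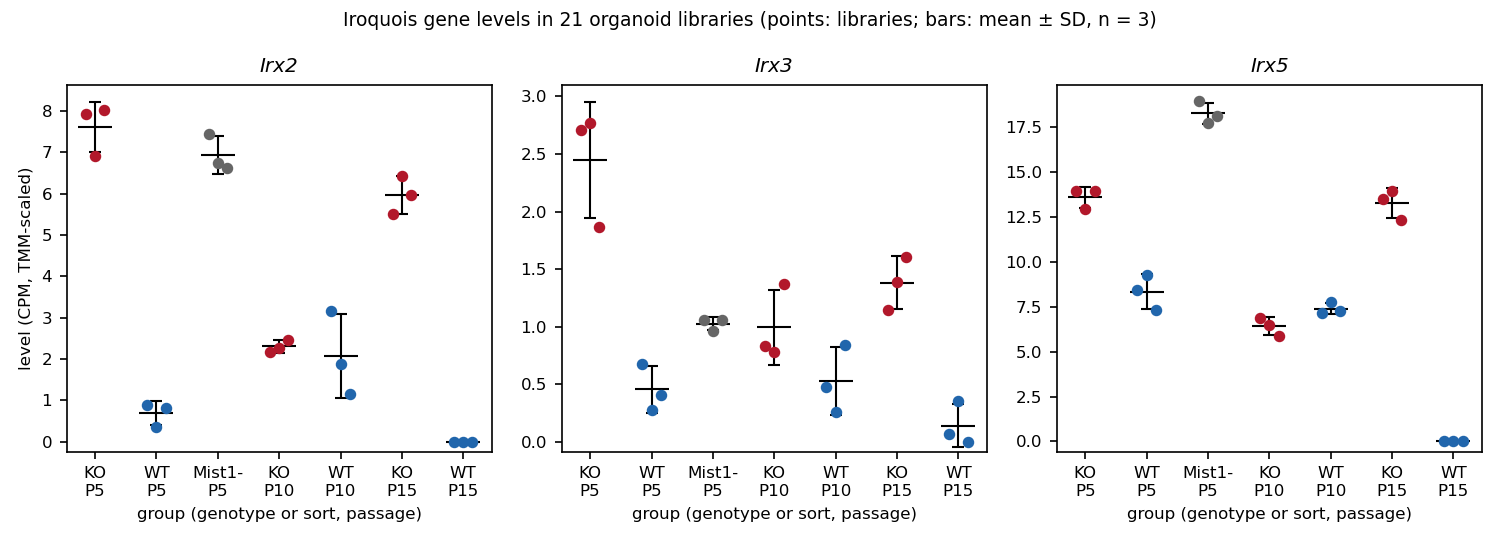
Level of Irx2, Irx3 and Irx5 (vertical axes, CPM after TMM scaling) in each of 21 libraries, by group along the horizontal axes: Gpx4 knockout (KO, red), wild type (WT, blue) and Mist1- (grey), with the passage (P). Points are libraries and bars the mean ± SD (n = 3); Irx2 and Irx5 lie at 0 in wild-type passage 15, and Irx2 is low in wild-type passage 5, at 0.686 CPM.

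Mist1+ organoids were compared with Mist1- organoids at passage 5, a comparison of cultures by their Mist1 label. The labels do not say how the Mist1- cells were obtained. All 3 detected members were lower in the Mist1+ cultures, Irx2 the most. The fitted differences were 9.97-fold for Irx2, 2.22-fold for Irx3 and 2.19-fold for Irx5. Of the 14984 genes tested, 52.6% were called in this comparison, 25.7% as lower, and 3.46% were called and at least 2-fold lower. On the deposited FPKM, without TMM scaling, limma called 3209 genes higher and 4716 lower, against 4020 and 3855 here, and all 3 members stayed called as lower.

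Irx2 had 13, 5 and 12 counts in the Mist1+ libraries, against 126, 119 and 112 counts in the Mist1- libraries. The Mist1+ libraries were all far below the Mist1- libraries, with no overlap, as was the case in one direction or the other for 57.3% of genes. The mean level was 0.686 ± 0.29 CPM in Mist1+ and 6.94 ± 0.447 CPM in Mist1- organoids (SD, n = 3 each), a log2 fold change of -3.32 ± 0.244 (SE) with an edgeR adjusted p of 9.22e-29. A change of at least this size was seen in 1.12% of the genes tested. Irx5 had 124, 131 and 107 counts in Mist1+, against 319, 313 and 306 in Mist1- libraries. Here too the groups lay apart, at 8.33 ± 0.957 CPM in Mist1+ and 18.2 ± 0.578 CPM in Mist1- organoids. The log2 fold change was -1.13 ± 0.108 with an adjusted p of 9.62e-20. Irx3 had 10, 4 and 6 counts in Mist1+, against 18, 17 and 18 in Mist1- libraries. These few counts did not overlap between the groups, and the fall was -1.15 ± 0.429 (adjusted p = 0.0171). This call rested on single libraries of the Mist1+ group, with an adjusted p of 0.0943 without replicate 2 and 0.0531 without replicate 3. In bulk organoids, fewer cells that express a gene and less RNA per cell cannot be told apart.

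Gpx4 knockout organoids were then set against wild-type organoids at passage 5, the earliest passage of both genotypes. All 3 genes rose in the knockout, by a fitted 10.9-fold for Irx2, 5.29-fold for Irx3 and 1.63-fold for Irx5. Among all genes tested 47.4% were called, 22.2% as higher, and 2.66% were called and at least 2-fold higher. On the deposited FPKM, limma called 4768 genes higher and 2711 lower, against 3324 and 3771 here, and the 3 members stayed called as higher.

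Irx2 had 143, 132 and 133 counts in knockout libraries, against 13, 5 and 12 in wild-type libraries. The knockout libraries lay close together and all above the wild type, and 53.7% of genes had no overlap in this comparison. Irx2 averaged 7.62 ± 0.614 CPM in knockout and 0.686 ± 0.29 CPM in wild-type organoids, a log2 fold change of 3.45 ± 0.239 (adjusted p = 5.44e-31), a size reached by 0.574% of genes. Irx3 had 49, 53 and 31 counts in the knockout, against 10, 4 and 6 in the wild type. The knockout libraries were again all higher, although 1 of them was well below the others. The means were 2.45 ± 0.505 CPM in knockout and 0.457 ± 0.202 CPM in wild-type organoids, with a log2 fold change of 2.40 ± 0.373 (adjusted p = 5.67e-09). Irx5 had 251, 247 and 231 counts in the knockout, against 124, 131 and 107 in the wild type. Its groups did not overlap either, but the step was smaller, at 13.6 ± 0.569 CPM in knockout and 8.33 ± 0.957 CPM in wild-type organoids (log2 fold change 0.705 ± 0.112, adjusted p = 1.11e-08). A change of at least this size occurred in 14.4% of genes.

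Knockout organoids were also compared with Mist1- organoids at passage 5. Irx2 averaged 7.62 CPM in knockout and 6.94 CPM in Mist1- organoids, and the libraries overlapped. The log2 fold change was 0.13 ± 0.149 (95% interval -0.16 to 0.424, adjusted p = 0.515). Irx3 rose in the knockout, with 49, 53 and 31 counts against 18, 17 and 18 in Mist1- libraries, by 1.25 ± 0.309 on the log2 scale (adjusted p = 0.000331). The Irx3 libraries of the 2 groups lay apart, as did those of 47.7% of genes. Irx5 fell, with 13.6 CPM in knockout and 18.2 CPM in Mist1- organoids (log2 fold change -0.425 ± 0.0956, adjusted p = 7.55e-05). Among all genes 39.9% were called in this comparison, 19.5% as higher and 20.3% as lower. The 3 comparisons at passage 5 share libraries: each group enters 2 of them.

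**Figure D2:**
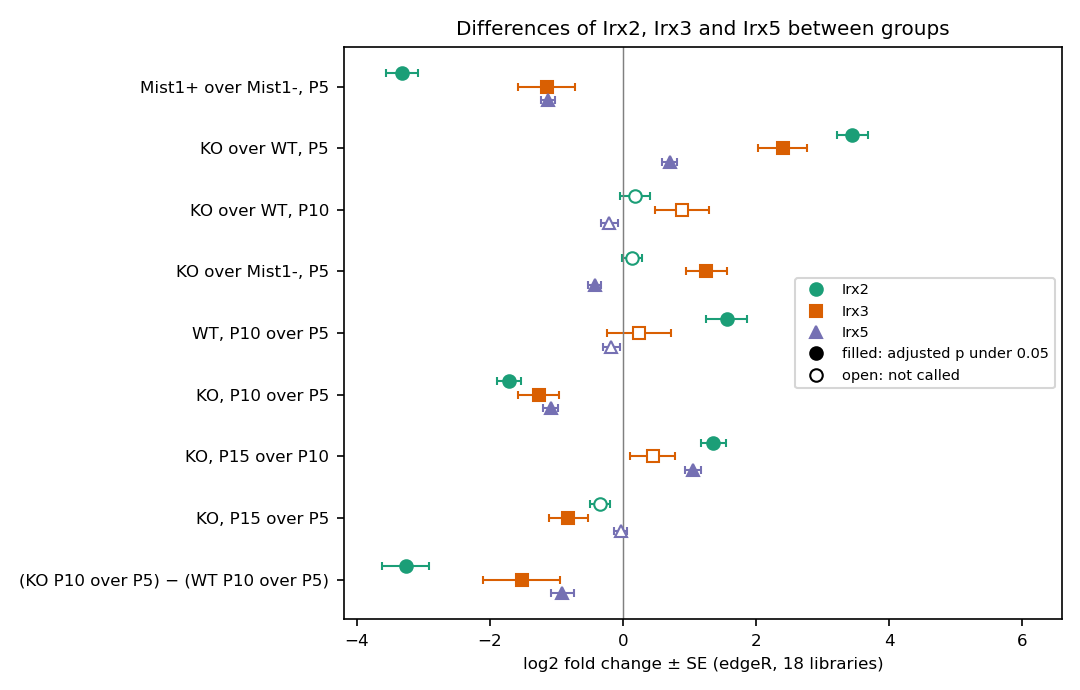
Log2 fold change with its SE (horizontal axis, edgeR over 18 libraries) of Irx2, Irx3 and Irx5 in 8 comparisons between groups and in the genotype by passage interaction (rows); filled symbols had an adjusted p under 0.05. At passage 5 all 3 genes lie right of 0 for knockout over wild type (up to 3.45 for Irx2) and left of 0 for Mist1+ over Mist1-, and at passage 10 none of the knockout differences is filled.

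At passage 10 no member was called between knockout and wild type, while 52.0% of all genes tested were (3701 higher and 4093 lower, or 4708 and 3035 by limma on the deposited FPKM). Irx2 had 34, 32 and 45 counts in knockout and 53, 29 and 22 in wild-type libraries. The knockout libraries lay inside the range of the wild-type libraries. The difference was 0.18 ± 0.23 (adjusted p = 0.543), and 60.4% of genes had one at least as large. The spread among wild-type libraries was wide for Irx2, and without wild-type replicate 1 the gene was called higher in the knockout (0.632, adjusted p = 0.0402). Without wild-type replicate 3 the direction turned (-0.142, adjusted p = 0.661). Irx3 had 13, 11 and 25 counts in knockout and 8, 4 and 16 in wild-type libraries, which overlapped. Its log2 fold change was 0.89 ± 0.404 with an adjusted p of 0.0553, close to the threshold. Leaving out knockout replicate 1, knockout replicate 2 or wild-type replicate 3 brought it below, with values of 0.562 to 1.42 over the 6 libraries left out in turn. Irx3 was also called higher in the knockout by limma on log2(FPKM + 1) (0.207, adjusted p = 0.0473) and under upper-quartile scaling (0.913, adjusted p = 0.0481). Irx5 had 107, 91 and 107 counts in knockout and 119, 119 and 138 in wild-type libraries. All knockout libraries were lower in CPM, a separation that 55.7% of genes showed in one direction or the other, at 6.40 ± 0.493 CPM in knockout and 7.39 ± 0.329 CPM in wild type. The log2 fold change of -0.21 ± 0.129 was not called (adjusted p = 0.167). Its 95% interval ran from -0.461 to 0.0429.

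The passages were then compared within each genotype. Each passage of a genotype is 1 group of 3 libraries, so passage cannot be told apart from the culture or harvest. In knockout organoids all 3 genes fell at passage 10 relative to passage 5. Irx2 fell to 2.31 ± 0.15 CPM at passage 10, against 7.62 ± 0.614 CPM at passage 5 (log2 fold change -1.71 ± 0.182, adjusted p = 8.14e-16). Irx3 fell to 0.997 ± 0.328 CPM, against 2.45 ± 0.505 CPM (log2 fold change -1.27 ± 0.314, adjusted p = 0.000676). Irx5 fell to 6.40 ± 0.493 CPM, against 13.6 ± 0.569 CPM (log2 fold change -1.09 ± 0.115, adjusted p = 5.12e-16). The libraries of the 2 passages did not overlap for any of the 3, against 33.1% of genes without overlap. Over all genes 22.2% were called between these passages, 10.5% as lower, and 1.24% were called and at least 2-fold lower.

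In wild-type organoids Irx2 was the one member called between passages 10 and 5, and it rose. It averaged 2.08 ± 1.02 CPM at passage 10 and 0.686 ± 0.29 CPM at passage 5, a log2 fold change of 1.56 ± 0.307 (adjusted p = 1.62e-05) in a comparison where 18.5% of genes were called, 9.19% as higher. All 3 passage 10 libraries exceeded all 3 of passage 5 (30.9% of genes had no overlap), and the value stayed called at 1.11 to 1.88 with each of these libraries left out. Irx3 had a log2 fold change of 0.24 ± 0.483 (adjusted p = 0.813) and Irx5 one of -0.17 ± 0.124 (adjusted p = 0.389), and both overlapped between the passages. Without wild-type passage 10 replicate 3 the Irx3 value was -0.288.

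The interaction tests whether the change between passages differed between the genotypes. It was called for all 3 members, against 20.1% of all genes, 9.58% with a negative value. It was -3.27 ± 0.353 for Irx2 (adjusted p = 2.54e-15) and -0.915 ± 0.171 for Irx5 (adjusted p = 4.09e-06), meaning that the passage 10 over 5 change was lower in the knockout than in the wild type. For Irx3 it was -1.52 ± 0.58 with an adjusted p of 0.0482. That call was lost in 8 of 12 fits with 1 library left out, in which the value ranged from -1.92 to -0.986. These 8 left out replicate 1 or 2 of knockout passage 10 or of knockout passage 5, replicate 1 or 3 of wild-type passage 10, or replicate 2 or 3 of wild-type passage 5.

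In the knockout, Irx2 and Irx5 rose at passage 15 relative to passage 10. Irx2 had 91, 111 and 104 counts at passage 15, against 34, 32 and 45 at passage 10, and rose by 1.36 ± 0.19 on the log2 scale (adjusted p = 1.92e-10). Irx5 had 223, 240 and 214 counts at passage 15, against 107, 91 and 107 at passage 10, and rose by 1.05 ± 0.116 (adjusted p = 3.3e-15). For both genes each passage 15 library was above each passage 10 library, and 44.7% of genes had no overlap. Irx3, with 19, 24 and 28 counts at passage 15 against 13, 11 and 25 at passage 10, was not called (0.445 ± 0.343, adjusted p = 0.328). Over all genes 36.7% were called, 16.7% as higher.

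Set against passage 5, the knockout at passage 15 had Irx5 at nearly the starting level, with 13.2 ± 0.844 CPM at passage 15 and 13.6 ± 0.569 CPM at passage 5. The log2 fold change of -0.0361 ± 0.1 (adjusted p = 0.836) had a 95% interval of -0.232 to 0.16. Irx2 averaged 5.98 ± 0.456 CPM at passage 15, against 7.62 ± 0.614 CPM at passage 5. Its libraries lay apart, as for 40.5% of genes, but the difference was not called (-0.346 ± 0.152, adjusted p = 0.0738). Irx3 fell, with 1.38 ± 0.228 CPM at passage 15 and 2.45 ± 0.505 CPM at passage 5 (log2 fold change -0.826 ± 0.294, adjusted p = 0.0218). This call was lost without replicate 1 or 2 of either passage, with adjusted p of up to 0.099. In all 30.0% of genes were called between these passages, 15.6% as lower. The 3 knockout passage comparisons share libraries with each other.

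Wild-type organoids at passage 15 gave the values on which the genes were chosen. Irx5 had 223, 240 and 214 counts in the knockout at passage 15, against 0, 0 and 0 in the wild type. Irx2 had 91, 111 and 104 counts in the knockout and 0 in each wild-type library. No read of either gene was counted in any of the 3 wild-type libraries, where 0 counts allow up to 0.0639 CPM. Relative to that floor of 3 counts over the group, Irx5 was at least 207-fold and Irx2 at least 93.6-fold higher in the knockout at passage 15. Within the wild type, Irx5 was at least 116-fold and Irx2 at least 32.5-fold lower at passage 15 than at passage 10, where the genes had 376 and 104 counts in all. Irx3 had 19, 24 and 28 counts in the knockout and 1, 6 and 0 in the wild type at passage 15. Its ratio of knockout to wild type was 9.31, with a 95% counting interval of 4.29 to 24.0. That ratio rested on wild-type replicate 2, which held 6 of the 7 counts, and was 41.7 without it (7.24 to 1670, chosen after seeing the data). Of the genes tested, 0.454% had 0 counts in all 3 libraries of wild-type passage 15, and 45.8% did not overlap between the genotypes at that passage.

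Loss of every read from a clearly counted gene was rare in any group. Of 13293 genes with at least 10 counts in each wild-type passage 10 library, 28 had 0 counts in all of wild-type passage 15, or 0.211%, and Irx2 and Irx5 are among them by choice. The same count was 9 genes for knockout passage 15, 5 for knockout passage 10, 7 for knockout passage 5, 1 for wild-type passage 5 and 11 for Mist1- organoids. Wild-type passage 15 libraries also held RNA of the squamous forestomach list. The 5 genes of that list summed to 1.09 to 2.61 CPM in knockout passage 15, against 189 to 272 CPM in wild-type passage 15, and to 4.37 to 5.28 CPM in wild-type passage 10. Nearly all of it was Krt4, a keratin of stratified epithelia, at 223 CPM, while Trp63, the defining regulator of squamous basal cells, had 0 counts and Krt14 had 1 count. The 6 chief and neck cell genes in the table summed to 70.1 to 110 CPM in wild-type passage 15, against 208 to 213 CPM at passage 10. Most of that difference was Gkn3, a gastrokine gene, at 49.8 CPM in passage 15 and 163 CPM in passage 10, while Tff2 stood at 26.4 CPM and 19.4 CPM.

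The same wild-type libraries differed in other genes of stomach and intestine, named here after their values were seen. The 10 gastric epithelial markers summed to 9070 to 13300 CPM in wild-type passage 15, against 16400 to 16600 CPM in wild-type passage 10. Among them Gkn1, a gastrokine gene of surface cells, had 186 CPM at passage 15, against 1370 CPM at passage 10, and Muc5ac, the surface mucin, 28.8 CPM and 282 CPM. Of the stomach regional transcription factors, Gata6 had 0.915 CPM at passage 15, against 46.1 CPM at passage 10, and Pdx1 2.3 CPM and 29.6 CPM. Foxa3 was lower as well, at 8.6 CPM against 34.7 CPM. Several others of that list lay close, such as Sox2 at 24.4 CPM against 21.1 CPM and Gata4 at 87.4 CPM against 92.1 CPM. Gata5 had 54.5 CPM against 55.6 CPM, and Foxa2 8.37 CPM against 8.17 CPM. The intestinal factors Cdx2 and Isx had 32.1 CPM and 2.1 CPM at passage 15, against 1.19 CPM and 0.0528 CPM at passage 10. Cdx1, another intestinal factor, had only 2 counts over all libraries. The part of these shifts in the Iroquois values was not tested.

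The order of the 7 groups was not the same for each gene. Irx2 ran from 7.62 CPM in knockout passage 5 through 6.94 CPM in Mist1- organoids, 5.98 CPM in knockout passage 15, 2.31 CPM in knockout passage 10, 2.08 CPM in wild-type passage 10 and 0.686 CPM in wild-type passage 5 down to 0. The first and the second overlapped, as did both groups of passage 10. Irx5 was highest in Mist1- organoids, at 18.2 CPM, followed by knockout passages 5 and 15 at 13.6 and 13.2 CPM, which overlapped. Wild-type passage 5 and passage 10 came next, at 8.33 and 7.39 CPM, also overlapping, and knockout passage 10 at 6.40 CPM was above only wild-type passage 15. Irx3 was highest in knockout passage 5, at 2.45 CPM, and from Mist1- organoids, at 1.03 CPM, downward each group overlapped the next.

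The balance between members shifted as well. Per exonic length within a library, Irx2 stood at 53.4% ± 2.13 of Irx5 in knockout passage 5, against 8.10% ± 3.88 in wild-type passage 5 and 36.2% ± 1.38 in Mist1- organoids (SD, n = 3). At passage 10 it was 34.6% ± 4.99 in the knockout and 26.9% ± 14.0 in the wild type, where single libraries ran from 15.2% to 42.4%. In knockout passage 15 it was 43.1% ± 3.81. At passage 5 the 3 knockout values were all above the 3 Mist1- values, and these all above the wild type. Irx3 stood at 20.5% ± 4.75 of Irx5 in knockout passage 5, against 6.31% ± 2.84 in wild type and 6.40% ± 0.255 in Mist1- organoids. These shares restate the counts given above and were not tested separately.

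**Figure D3:**
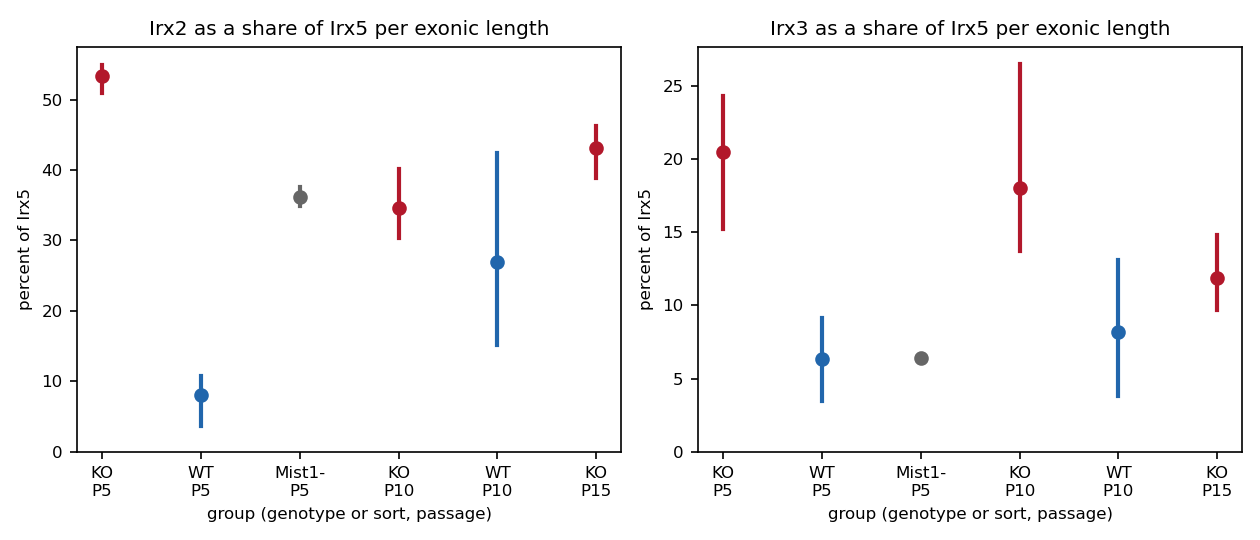
Irx2 (left) and Irx3 (right) as a percentage of Irx5 per exonic length (vertical axes) in 6 groups (KO, Gpx4 knockout; WT, wild type; P, passage); dots are means of 3 libraries and bars run from the lowest to the highest library. Wild-type passage 15 is left out because Irx5 has no counts there; Irx2 is lowest in wild-type passage 5, at 8.10%, and highest in knockout passage 5, at 53.4%.

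Across the 18 libraries outside wild-type passage 15, log2 CPM of Irx2 and Irx3 had a Pearson r of 0.766, Irx2 and Irx5 one of 0.716, and Irx3 and Irx5 one of 0.5. The points are libraries of 6 groups, so each r largely restates the group means, and no p is given. The pair that shares a cluster, Irx3 and Irx5, had the lowest of the 3 values. Irx3 also had the fewest counts, 20 to 133 per group here, and how far counting noise lowered its r was not tested.

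Transcripts next to the members were examined by their distance in the deposited table. Within 1 Mb of a member lay 93 other genes, of which 24 passed the filter. Crnde, a long non-coding RNA known from human colorectal tumours, starts beside Irx5 on the opposite strand, with 5 bases between the spans in the deposited table and 1504 in GENCODE M21 (GRCm38). Gm20554, a gene model without a described function, lies beside Irx2 on the opposite strand, 180 bases away in the deposited table and 255 in GENCODE M21. The strand setting of the counting is not given in the sources used here, so reads near the shared ends could have been assigned to either gene of a pair.

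Crnde had 5, 3 and 2 counts in wild-type passage 15, against 71, 55 and 84 in wild-type passage 10. It was lowest in the same group as Irx5, at 0.221 CPM, against 4.09 CPM at passage 10. The ratio of passage 10 to passage 15 was 19.3 (95% counting interval 10.3 to 40.9). Gm20554 had 0 counts in wild-type passage 15, against 4, 4 and 11 in wild-type passage 10, at least 5.64-fold more. In the knockout at passage 15 it had 24, 22 and 24 counts, at least 21.4-fold more than in wild-type passage 15. Gm21817, a gene model inside the span of Crnde, had 2, 0 and 0 counts in wild-type passage 15, against 13, 10 and 14 in wild-type passage 10. These 3 are the nearest of the 24 neighbours. The other 21 had log2 ratios of wild-type passage 15 to passage 10 between -1.48 for Ces1g, a carboxylesterase, and 0.984 for Gapdh-ps16, a pseudogene whose reads may come from Gapdh, with a median of -0.17. Fto, which encodes an RNA demethylase, stood at -0.394. As the members were chosen on this contrast, these values are given as a description.

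**Figure D4:**
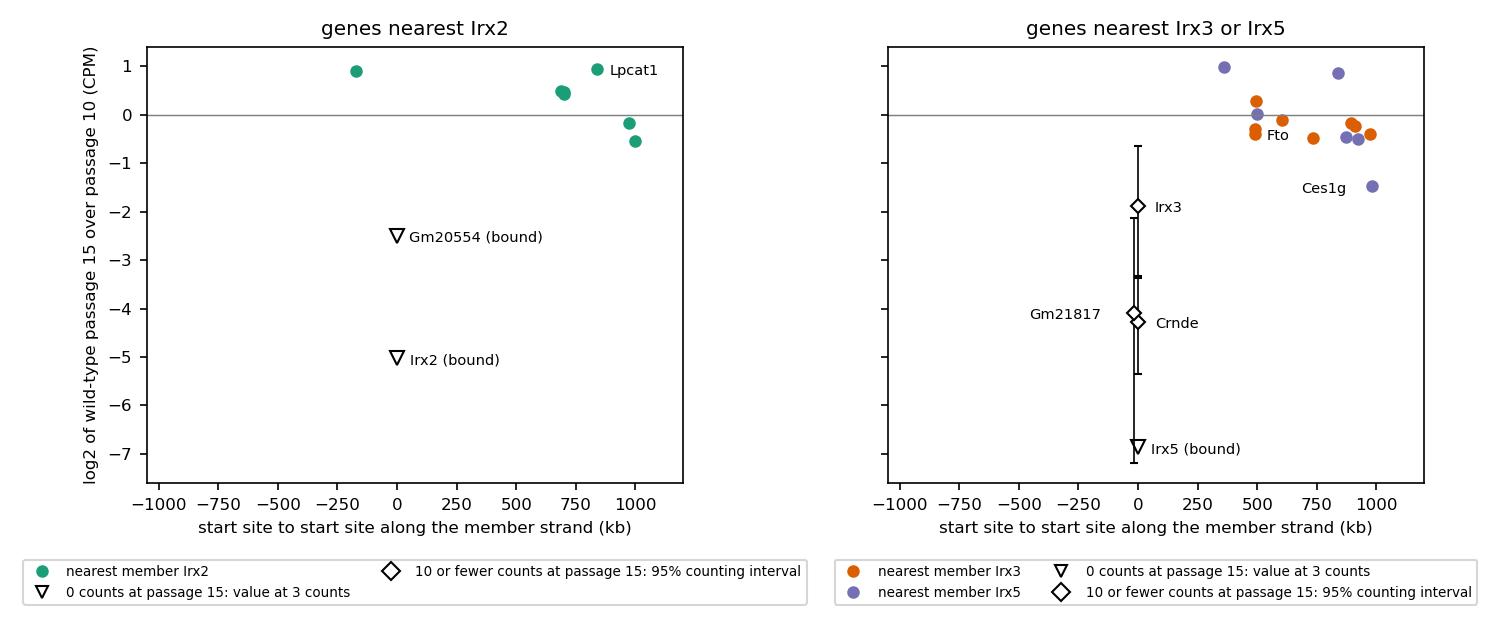
Log2 ratio of wild-type passage 15 to passage 10 (vertical axes) of the 24 tested genes within 1 Mb of a member and of the members themselves (at 0 kb), against the distance between start sites along the member's strand in kb (horizontal axes), for genes nearest Irx2 (left) and nearest Irx3 or Irx5 (right). Triangles mark genes with 0 counts at passage 15, drawn at the value that 3 counts would give, and diamonds with bars mark ratios with their 95% counting intervals; apart from Crnde, Gm20554 and Gm21817, the neighbours lie between -1.48 and 0.984.

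Where Crnde was called in the comparisons tested for it, its direction was that of Irx5. It fell in Mist1+ against Mist1- organoids (3.96 CPM against 6.24 CPM, log2 fold change -0.656 ± 0.165, adjusted p = 0.000301). In the knockout it fell at passage 10 relative to passage 5 (-0.659 ± 0.175, adjusted p = 0.00174) and rose at passage 15 relative to passage 10 (0.856 ± 0.172, adjusted p = 1.04e-05). Between knockout and wild type at passage 5 its levels were 4.93 CPM and 3.96 CPM and the difference was not called (0.318 ± 0.17, adjusted p = 0.116), though limma on log2(FPKM + 1) called it higher (0.204, adjusted p = 0.0204). Its interaction of genotype and passage was -0.715 ± 0.249 (adjusted p = 0.0261) and was lost without knockout passage 10 replicate 3, wild-type passage 10 replicate 1 or 3, or wild-type passage 5 replicate 3 (adjusted p of up to 0.0728), as well as without the low-count filter (adjusted p = 0.0532) and with all 21 libraries in the model (adjusted p = 0.0572). Gm20554 rose in the knockout at passage 5 (1.03 CPM in knockout, 0.183 CPM in wild type, 2.43 ± 0.558, adjusted p = 8.44e-05) and fell in Mist1+ against Mist1- organoids (-2.74 ± 0.542, adjusted p = 4.08e-06). With its 235 counts over all libraries, its fall in the knockout at passage 10 relative to passage 5 (-1.42 ± 0.47, adjusted p = 0.017) was lost without replicate 1 or 3 of passage 10 or replicate 1 of passage 5 (adjusted p of 0.195, 0.102 and 0.0564). It was also lost with all 21 libraries in the model (adjusted p = 0.156) and by limma on log2(FPKM + 1) and log2(FPKM + 0.1) (adjusted p of 0.0696 and 0.0507). Over the 18 libraries r was 0.899 between Irx5 and Crnde and 0.789 between Irx2 and Gm20554, again over points that share their groups. Irx3os, which overlaps the span of Irx3 by 1656 bases on the opposite strand, had 23 counts in all and was not tested, so the Irx3 counts may include a few antisense reads.

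**Figure D5:**
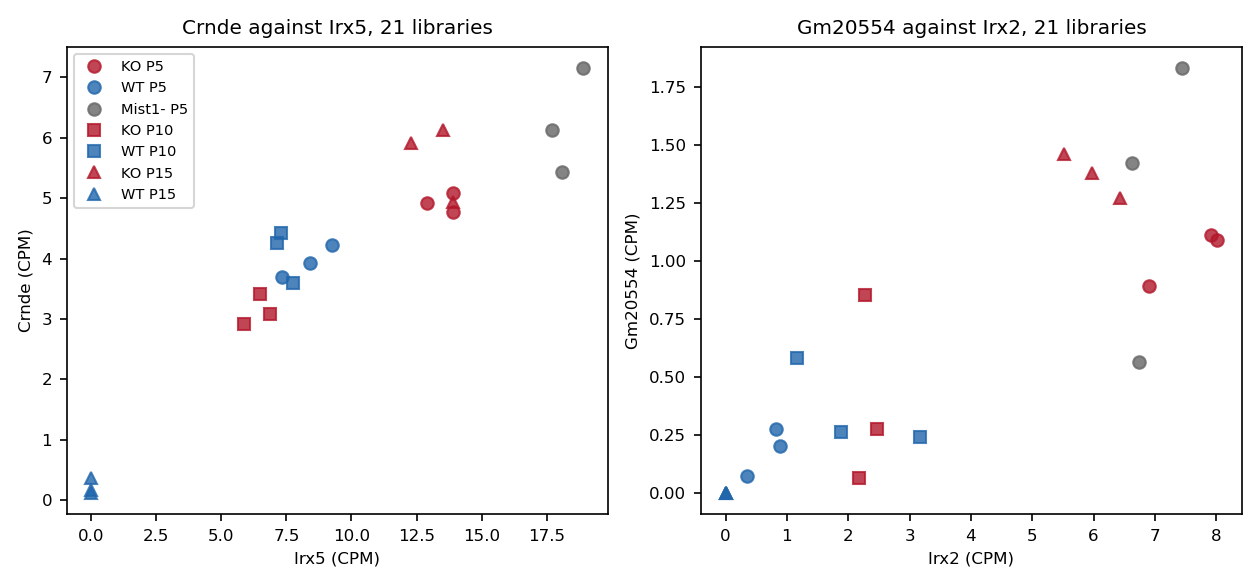
Level of Crnde against Irx5 (left) and of Gm20554 against Irx2 (right) in 21 libraries (both axes in CPM); red is Gpx4 knockout (KO), blue wild type (WT), grey Mist1-, and circles, squares and triangles are passages 5, 10 and 15. The 3 wild-type passage 15 libraries lie at or near 0 on both axes, and the other libraries run upward together, more tightly for Crnde (r = 0.899 over 18 libraries) than for Gm20554 (r = 0.789).

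Genes farther along the clusters did not share one direction. Of the 21 tested neighbours other than Crnde, Gm20554 and Gm21817, 6 rose and 2 fell in the knockout at passage 5. Over all genes 22.2% rose and 25.2% fell. The neighbours had a median log2 fold change of 0.128, against a median of -0.004 over all genes. At passage 10, 2 of these neighbours rose and 7 fell, where 24.7% of all genes rose and 27.3% fell. The neighbours then had a median of -0.084, against -0.011 over all genes. Lpcat1, a lysophospholipid acyltransferase gene on the Irx2 side, rose in the knockout at passage 5 (13.4 CPM in knockout, 9.31 CPM in wild type, 0.529 ± 0.109, adjusted p = 1.11e-05). It also rose at passage 10 (17.2 CPM in knockout, 9.70 CPM in wild type, adjusted p = 7.63e-13), where no member was called. Fto fell in the knockout at passage 10 by 0.196 on the log2 scale (SE 0.051, adjusted p = 0.000519), which limma on log2(FPKM + 1) did not call (adjusted p = 0.0606).

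Lists of related genes were counted against the share of all genes called: 22.2% higher and 25.2% lower for knockout against wild type at passage 5, 24.7% and 27.3% at passage 10, and 26.8% and 25.7% for Mist1+ against Mist1- organoids. With so many genes called, counts near these shares say nothing particular of a list.

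Among the other TALE homeobox genes, cofactors and relatives of the Iroquois class, 8 of 12 were tested. In the knockout at passage 5, 4 rose and 3 fell, and in Mist1+ against Mist1- organoids 2 rose and 5 fell. Tgif1, a repressor of SMAD signalling, rose in the knockout at passage 5 (87.4 CPM in knockout, 69.6 CPM in wild type, 0.33 ± 0.0426, adjusted p = 4.45e-12) and was lower in Mist1+ than in Mist1- organoids (-0.719 ± 0.0414, adjusted p = 2.93e-40). Meis1, a homeodomain cofactor, likewise rose in the knockout (10.0 CPM in knockout, 6.5 CPM in wild type, 0.625 ± 0.129, adjusted p = 1.09e-05). Among the 3 that fell at passage 5 were Pbx4 (1.66 CPM in knockout, 3.54 CPM in wild type) and Pbx3 (26.3 CPM in knockout, 32.9 CPM in wild type). The median log2 fold changes of the 8 genes were 0.12 for knockout against wild type and -0.172 for Mist1+ against Mist1-, beside -0.004 and 0 over all genes.

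Stomach regional transcription factors, which mark the body or antrum of the stomach or its border with the intestine, were tested for 16 of 22 genes. In the knockout at passage 5, 2 rose and 8 fell, with a median log2 fold change of -0.381. Pitx1, a homeobox gene known from hindlimb and pituitary development, had 470, 522 and 468 counts in the knockout and 0, 1 and 2 in the wild type at passage 5. At passage 10 it had 170, 208 and 214 counts in the knockout and 1, 0 and 0 in the wild type. It rose in the knockout at both passages (edgeR adjusted p of 3.4e-85 and 2.29e-65), thus also at passage 10, where the Iroquois genes were not called. Pdx1, a factor of antrum and duodenum, fell in the knockout at passage 5 (18.5 CPM in knockout, 38.5 CPM in wild type, -1.05 ± 0.0768, adjusted p = 3.79e-29) and was higher in Mist1+ than in Mist1- organoids (38.5 CPM against 5.86 CPM, 2.72 ± 0.0946, adjusted p = 1.07e-70). Over the 18 libraries Pitx1 had an r of 0.826 with Irx2, 0.769 with Irx3 and 0.632 with Irx5.

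Hedgehog, Wnt, retinoic acid and BMP signals pattern many of the embryonic tissues in which Iroquois genes are active, and genes that report on these pathways were counted beside the members. Of 9 tested Wnt genes 2 rose and 4 fell in the knockout at passage 5, with a median log2 fold change of -0.35, but 3 rose and 1 fell at passage 10, with a median of 0.291. In wild-type organoids 8 of the 9 fell at passage 10 relative to passage 5, where 9.27% of all genes did. In Mist1+ against Mist1- organoids 6 rose and 1 fell. Lgr5, a stem cell receptor and Wnt target, rose in the knockout (45.8 CPM in knockout, 19.9 CPM in wild type, 1.21 ± 0.0673, adjusted p = 1.2e-41), whereas Axin2, a feedback inhibitor, fell (13.4 CPM in knockout, 27.0 CPM in wild type, -1.01 ± 0.0922, adjusted p = 6.1e-21). Of 4 tested hedgehog genes 1 rose and 2 fell at passage 5. Smo, the signal transducer, rose (12.0 CPM in knockout, 4.55 CPM in wild type, 1.39 ± 0.131, adjusted p = 7.14e-20), and Shh, a ligand, fell (0.325 CPM in knockout, 4.28 CPM in wild type, -3.65 ± 0.333, adjusted p = 7.64e-21).

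Of 9 tested retinoic acid genes none rose and 5 fell in the knockout at passage 5, with a median of -0.21. Aldh1a1, a retinaldehyde dehydrogenase, fell (log2 fold change -1.19 ± 0.0364, adjusted p = 1.26e-79). Of 8 tested BMP genes 1 rose and 4 fell, among them Id1 (-0.903 ± 0.0655, adjusted p = 5.71e-27) and Id2 (-0.576 ± 0.041, adjusted p = 3.6e-30), which encode inhibitors of helix-loop-helix factors. Of 18 tested Polycomb and DNA methylation genes 9 rose and none fell in the knockout at passage 5, with a median of 0.111, and in Mist1+ against Mist1- organoids 2 rose and 9 fell. Dnmt1, the maintenance DNA methyltransferase, rose by 0.318 ± 0.0307 (adjusted p = 3.64e-19), and Uhrf1, its partner at replicated DNA, by 0.326 ± 0.0387 (adjusted p = 7.3e-14). Suz12, a core Polycomb subunit, rose by 0.24 ± 0.029 (adjusted p = 1.8e-13), a call lost with wild-type passage 15 in the model (adjusted p = 0.134).

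For each detected member the 5 named protein-coding genes with the most similar level over the 18 libraries were listed by r. For Irx2 they were Zfp9 (r = 0.948), Pdia6 (0.946), Atp6v0e2 (0.943), Sec61a1 (0.942) and Rpn2 (0.929). Zfp9, a zinc finger gene, averaged 6.16 CPM in knockout and 1.19 CPM in wild type at passage 5, and Atp6v0e2, a proton pump subunit gene, 2.22 CPM in knockout and 0.228 CPM in wild type. Pdia6, Sec61a1 and Rpn2 ran in parallel over a narrow range, Sec61a1 for example at 437 CPM in knockout and 340 CPM in wild type. For Irx5 they were Apob (0.946), Nipsnap1 (0.939), Spdef (0.936), Tff2 (0.933) and Npc1 (0.924). Apob, the structural protein of lipoproteins, averaged 276 CPM in knockout passage 5, 73.1 CPM in wild-type passage 5 and 625 CPM in Mist1- organoids, and stood at 8.04 CPM in wild-type passage 15, a group that r did not use. Tff2, a mucous neck cell peptide, averaged 96.4 CPM in knockout passage 5, 24.9 CPM in wild-type passage 5 and 480 CPM in Mist1- organoids, and 26.4 CPM in wild-type passage 15. Irx3 had lower best values, with Fkbp11 (0.888), Card6 (0.884), Ammecr1 (0.884), Arcn1 (0.867) and Mdh2 (0.864). Each list takes the highest of many correlations, and the r values describe these libraries only.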

How the data were processed

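Total RNA of 21 mouse organoid libraries was sequenced, 3 per group. Per the submitters' processing notes, cutadapt 1.9.1, HISAT2 2.2.1, HTSeq 0.6.1 and GRCm38.p5 were used; the strand setting is not given in the sources used here. The authors deposited raw read counts per gene and FPKM values (counts divided by exonic length and by counts in genes) in one table, with exonic lengths. Counts were tested with edgeR 4.0.16 in R 4.3.3 (quasi-likelihood, robust moderation, TMM scaling, 1 mean per group) over 18 libraries, without wild-type passage 15, whose spread stood apart. The low-count filter was edgeR's filterByExpr (min.count 10, min.total.count 15), and p-values were adjusted by Benjamini-Hochberg over 14984 genes at 0.05. Each SE was derived as the size of the log2 change over the square root of F. CPM in the text are counts per 1e6 counts in genes, scaled by TMM. The procedure was tested on simulated data. Correlations used log2 CPM with a prior count of 1.

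Members and gene lists were chosen with earlier results of these data known. From each list up to 4 genes per comparison were named by smallest adjusted p, besides genomic neighbours and the 5 most alike genes per member. Alternatives were DESeq2 1.42.0, limma 3.58.1 on log2(FPKM + 1) and log2(FPKM + 0.1), other scalings, no filter, other sets of libraries, a replicate block and leaving out each library. Gene positions come from GENCODE M21 (GRCm38), because the table's coordinates matched that annotation for only 1435 of 52073 shared gene identifiers and their build is not given in the sources used here. Only distances within the table were taken from them. Intervals are 95% and, for ratios, cover counting error only, as do floors of 3 counts. A floor bounds 0 counts from above only, and the upper end of a 95% interval with both sides is higher, at 0.0785 CPM in wild-type passage 15. Folds against a floor take the mean of the other group without its counting error.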

Additional observations from a re-analysis of the deposited data

Results flagged for a closer look

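The change at passage 10 relative to passage 5 differed between knockout and wild-type organoids for all 3 detected Iroquois genes, by the edgeR test of the interaction. For Irx2 the knockout change minus the wild-type change was -3.27 on the log2 scale (SE 0.353, adjusted p = 2.54e-15), with -1.71 in the knockout and 1.56 in the wild type. For Irx5 it was -0.915 (SE 0.171, adjusted p = 4.09e-06), with -1.09 in the knockout and -0.17 in the wild type. For Irx3 it was -1.52 (SE 0.58, adjusted p = 0.0482), with -1.27 in the knockout and 0.24 in the wild type, a call that most fits with 1 library left out did not keep.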

How the results depend on the processing

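The 27 values of Irx2, Irx3 and Irx5 were recomputed under 10 other settings and with each of 18 libraries left out, which gave 449 values. Of these, 415 kept their direction and their side of the threshold, 23 lost a call, 8 gained one and 3 turned. With all 21 libraries in the model, Irx3 was no longer called in Mist1+ against Mist1- organoids (-1.15, adjusted p = 0.0637), in the knockout at passage 15 against 5 (-0.825, adjusted p = 0.131) or in the interaction (-1.51, adjusted p = 0.215). The same model called 4547 genes for knockout against wild type at passage 5 (7095 without wild-type passage 15), 738 for wild-type passage 10 against 5 (2766), 1150, 2717 and 1960 for knockout passages 10 against 5, 15 against 10 and 15 against 5 (3330, 5502 and 4492), 3182 for knockout against Mist1- (5972) and 897 for the interaction (3018). Irx3 at passage 10 was called higher in the knockout under upper-quartile scaling (0.913, adjusted p = 0.0481) and by limma on log2(FPKM + 1) (0.207, adjusted p = 0.0473) and log2(FPKM + 0.1) (0.75, adjusted p = 0.0256). With only the compared groups, Irx2 was called lower in the knockout at passage 15 against 5 (-0.346, adjusted p = 0.0383). Irx3 in that comparison was lost by limma on log2(FPKM + 0.1) (-0.718, adjusted p = 0.0567). The Irx3 interaction was lost under upper-quartile scaling (-1.5, adjusted p = 0.0504), without a filter (-1.52, adjusted p = 0.0843), with only the compared groups (-1.51, adjusted p = 0.0563), without robust moderation (-1.52, adjusted p = 0.0513) and by DESeq2 (-1.52, adjusted p = 0.0616). The cause was not tested. With single libraries left out, the Irx3 value ranged from -1.55 to -0.914 for Mist1+ against Mist1-, from 0.562 to 1.42 for knockout against wild type at passage 10, from -0.985 to -0.716 for knockout passage 15 against 5 and from -1.92 to -0.986 for the interaction. Irx2 in knockout against wild type at passage 10 ranged from -0.142 to 0.632. Values that turned were this one and Irx3 in wild-type passage 10 against 5 (-0.288 to 0.642), both without wild-type passage 10 replicate 3, and Irx5 in knockout passage 15 against 5 (-0.0763 to 0.0154), without passage 15 replicate 3; none of the 3 was called in the model over 18 libraries. Same-numbered libraries did not deviate together (correlations of -0.022 to 0.03), so the numbers were not taken as pairs, and a replicate block, with 7828 calls for Mist1+ against Mist1- and 7053 for knockout against wild type at passage 5, changed no call of a member. With each wild-type passage 15 library left out, an alternative chosen after seeing the data, the Irx3 ratio of knockout to wild type at passage 15 was 6.1 to 41.7, against 9.31 with all 3. With 20 to 133 Irx3 counts per group outside wild-type passage 15, counting noise limits what can be said of that gene.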
